A study of Mus musculus with 24 samples.

Results

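AAV-Klotho was compared with AAV-GFP in the oldest mice of the study, the animals it calls oldest-old, aged 27 to 29 months. The comparison sets the 4 libraries titled oldest-old KL against the 4 titled oldest-old GFP, which makes 8 of the 24 libraries of the series, and it was chosen by these titles alone. Each library holds RNA from the gastrocnemius, a muscle of the calf, of 1 female C57BL/6J mouse. Tissue was taken 14 days after a tail vein injection of 3e8 vector genomes per mouse. The AAV-Kl mice received an adeno-associated virus of serotype 8 that carries a codon-optimised mouse Klotho gene with a CD33 secretion signal and a V5 tag, driven by the liver-specific LP1 promoter. The GFP mice received green fluorescent protein in the same kind of vector, so both groups share the virus, the promoter and the injection. The transgene was therefore meant to be expressed in the liver and not in the muscle sequenced here, and its altered codons mean that its reads need not align to the mouse gene Kl. Morbid animals were left out of the study. Mice entered it only with a middling performance in a hanging test and were then randomised so that the groups began alike, so the mice describe survivors in fair health. Old AAV-Kl and old GFP mice, aged 21 to 24 months with 4 libraries each, are used below to ask whether the response differed between ages. Young GFP mice, aged 3 to 6 months, gave 4 further libraries, and they are used for levels and, with the old mice, in the common fit from which the variability of each gene is estimated.

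Klotho is a membrane protein of the kidney and brain whose outer part is shed into the blood and circulates as a hormone. With receptors for fibroblast growth factors it forms the receptor for FGF23, a hormone of phosphate balance, and the shed form is known to dampen insulin, Wnt and TGF-beta signalling. Mice that lack it age early and lose muscle, and its level in blood falls with age.

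The depth, as reads counted on genes, ran from 41661107 to 59733985 in GFP libraries and from 49748856 to 55792382 in AAV-Kl libraries. No difference in depth was detected (two-sided exact permutation test, p = 0.657, where 0.0286 is the smallest value that 4 libraries against 4 allow), nor in the share of reads taken by the 10 most abundant genes (exact p = 0.8). Genes with a read numbered 24294 to 25822 in GFP mice and 24866 to 26413 in AAV-Kl mice. Markers of the muscle fibre dominated every library. Summed over 10 marker genes, their level was 148221, 166714, 169651 and 138092 CPM (reads scaled to a common library size) in GFP mice 1 to 4 and 146256, 139214, 139692 and 182164 CPM in AAV-Kl mice 1 to 4. The groups overlapped, AAV-Kl mouse 4 was highest, and the most abundant marker was Acta1, the alpha-actin of skeletal muscle, at 21400 CPM per kilobase of exon. The endogenous Kl transcript was close to absent, with 1, 6, 6 and 4 reads in the GFP libraries, 8, 5, 2 and 9 reads in the AAV-Kl libraries, and 14, 17, 18 and 17 reads in young GFP mice. Of 17 genes of Klotho, its relatives, FGF receptors and FGF hormones, 9 were abundant enough to test, and 0 were called by edgeR at an unadjusted p under 0.05, nor were any by DESeq2. The most abundant was the receptor Fgfr1, at 10.8 CPM per kilobase. The count was 1, higher, without AAV-Kl 3, GFP 3 or GFP 4, and 1, lower, without GFP 1. It was also 1, higher, when the 8 libraries were fitted alone, with or without the replicate number as a block.

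Several libraries stood apart from the rest of their group in some gene lists. AAV-Kl mouse 2 carried far more transcript of interferon-stimulated genes, whose products defend cells against viruses and other microbes. Their summed level was 174, 141, 106 and 318 CPM in GFP mice 1 to 4 and 111, 1209, 162 and 108 CPM in AAV-Kl mice 1 to 4. AAV-Kl mouse 2 also had the most transcript of MHC class I genes, which present antigens, with a sum of 1084 CPM against 286 to 323 CPM in the other AAV-Kl mice. Markers of some immune cells were highest in the same mouse, with sums of 29 CPM for T and natural killer cells against 1.97 to 6.09 CPM in the other 7 mice, 320 CPM for MHC class II genes against 51.7 to 118 CPM, and 25.6 CPM for neutrophils against 2.26 to 18.1 CPM. Those of B and plasma cells were highest in GFP mouse 1, with 848 CPM against 655 CPM in AAV-Kl mouse 2. AAV-Kl mouse 3 had the highest level of heat-inducible chaperones, described further on, and a low level of collagens. GFP mouse 4 had the lowest collagen sum, 410 CPM against 758 to 838 CPM in the other GFP mice, and the highest sum of muscle atrophy genes, 3820 CPM against 2069 to 2316 CPM. Liver transcripts, the tissue of the transgene, were scarce and uneven. Summed over 16 hepatocyte genes they came to 80.9 CPM in GFP mouse 4 and 7.57 to 25.1 CPM in the other GFP mice, and to 88.1 CPM in AAV-Kl mouse 2 and 4.55 to 15.6 CPM in the other AAV-Kl mice.

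**Figure D1:**
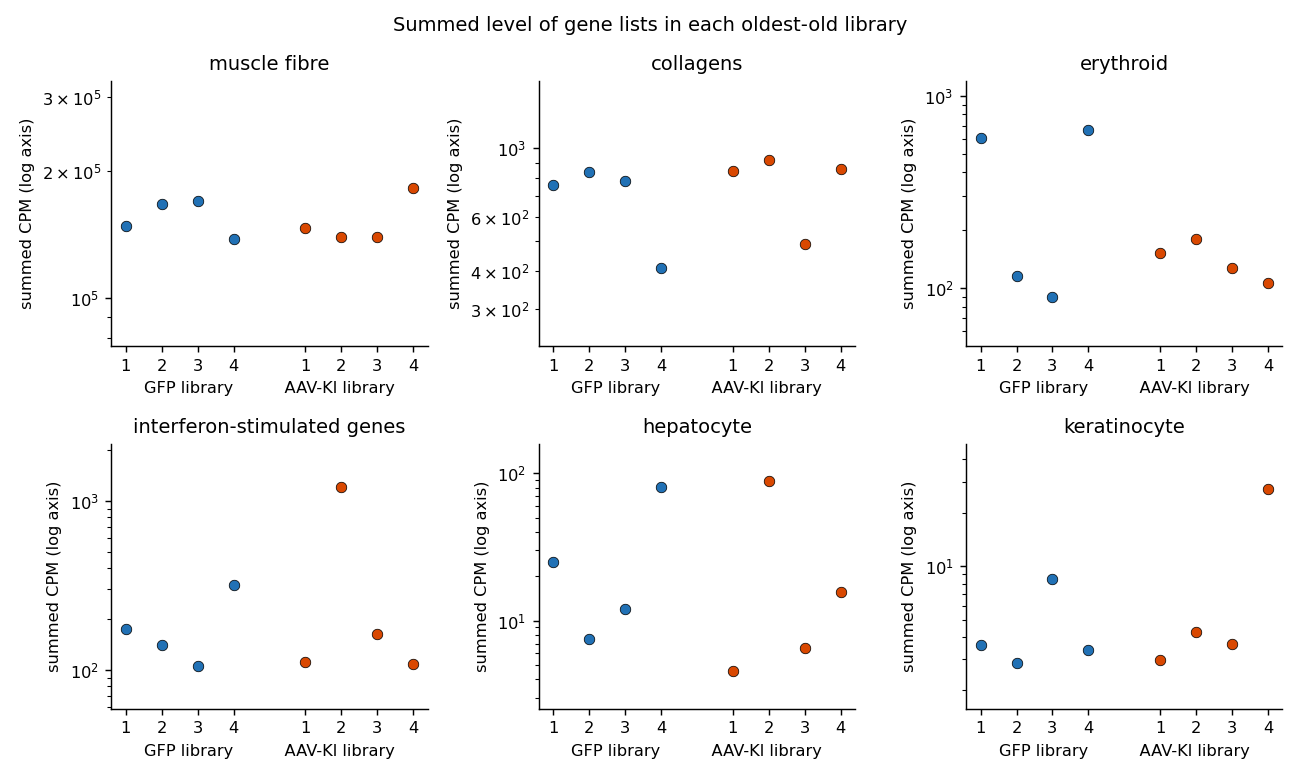
Summed level of 6 gene lists in each oldest-old library, in CPM on a log axis, with GFP libraries 1 to 4 in blue and AAV-Kl libraries 1 to 4 in orange. The interferon sum of AAV-Kl mouse 2, 1209 CPM, lies above all others, and GFP mice 1 and 4 hold the highest erythroid sums, 604 and 663 CPM.

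With Klotho, the muscle of the oldest mice had more transcript of Impact, a regulator of translation, of the insulin receptor substrate Irs2 and of the nuclear receptor Nr4a3. Of these genes only Impact passed adjustment over all genes in edgeR. Some chaperones that respond to heat, enzymes of sterol synthesis, mitochondrial ribosomal proteins and subunits of the respiratory chain were called higher and none of these lists held a gene called lower. Some zinc finger genes, components of Notch signalling and Foxc1, a transcription factor of blood vessels, were called lower. Most differences were small. Of 17465 genes tested with edgeR, 1246 had an unadjusted p under 0.05 (7.13% of genes tested), which is what "called" means here, where 5% of the genes tested would be 873. Of these, 624 were higher with AAV-Kl (3.57%) and 622 lower (3.56%). The median log2 fold change was 0.01 over all genes, and its median size was 0.33 over called genes and 0.13 over all genes. Among called genes, 149 changed by more than 1 on the log2 scale, 89 upward and 60 downward. After adjustment over all genes 2 remained under 0.05 (0.0115%), Impact and Gm43605, and the next adjusted p was 0.358. For 464 genes (2.66%) every AAV-Kl library lay on one side of every GFP library, and 324 of these were also called, 152 higher and 172 lower. That groups are apart describes the values of a gene and is not by itself evidence of a difference. The number called fell to 813 without GFP mouse 4, and to 606 when the 8 libraries were fitted alone, without the other 12. Here and below, a gene higher or lower in whole muscle may reflect the RNA in each cell or the number of cells of a kind, which bulk RNA cannot tell apart.

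Impact encodes a protein that holds back GCN2, the kinase that slows translation when amino acids run short, and its gene is imprinted, being read from the paternal copy. Its level was 18.6, 20.02, 19.8 and 20.99 CPM in GFP mice 1 to 4 and 41.5, 34.2, 31.1 and 46.0 CPM in AAV-Kl mice 1 to 4. Every AAV-Kl mouse was above every GFP mouse, and the GFP mice were almost level. The log2 fold change came to 0.94 ± 0.11, where here and below ± gives the standard error. The adjusted p was 0.00245, between 0.000471 and 0.0235 when each library was left out and 5.41e-11 with DESeq2. It was 0.126 with the 8 libraries alone and 0.508 when these were fitted with the replicate number as a block, past 0.05 in both, while the log2 fold change was 0.95 and 0.93. Young GFP mice averaged 31.8 CPM, old GFP mice 20.6 CPM and old AAV-Kl mice 20.1 CPM, so the oldest-old AAV-Kl mice were the only group of aged mice at or above the young level. It is encoded on chromosome 18 (GRCm38, bases 12955852 to 12992950, ENSMUSG00000024423.6), and of the 6 other genes tested within 500 kb of it 0 were called by edgeR. Around it in function, 30 genes of the integrated stress response were tested, with a median log2 fold change of 0.01. Of these 2 were called, Impact and 1 other, both higher, a share of 6.67%, near the 7.13% of all genes. That count depended on single mice, also in direction. It was 1 higher and 0 lower without AAV-Kl 2, 1 and 2 without AAV-Kl 3, 2 and 2 without GFP 1, and 1 and 3 without GFP 2. Among 32 imprinted genes 3 were higher and 2 lower (15.6%, against 7.13% of all genes), with a median of 0.02. The second of them by p was Cdkn1c, an inhibitor of the cell cycle, with 7.88 to 10.8 CPM in GFP mice and 12.4 to 18.6 CPM in AAV-Kl mice, a log2 fold change of 0.67 ± 0.19. Without AAV-Kl 4, 2 imprinted genes were higher and 1 lower.

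The other gene past adjustment, Gm43605, is a transcript of no known function (chromosome 5, bases 51510868 to 51514293, ENSMUSG00000105762.1) and was almost silent in GFP mice. Its level was 0.018, 0.048, 0.022 and 0.031 CPM in GFP mice 1 to 4 and 0.233, 0.475, 0.363 and 0.406 CPM in AAV-Kl mice 1 to 4, so that all AAV-Kl mice were higher, at a low level throughout. The log2 fold change came to 3.57 ± 0.54 (adjusted p = 0.0287). The adjusted p lay between 0.0638 and 0.292 without each of the 8 libraries in turn, so leaving out any one of them takes it past 0.05. The log2 fold change was 3.39 to 3.83 in these fits, and the gene stayed called in all 8. Its adjusted p was 0.126 with the 8 libraries alone, 0.355 with the block as well and 0.062 without the filter on low counts. The log2 fold changes there were 3.59, 3.57 and 3.58, and DESeq2 gave no adjusted p. The transcript lies within Ppargc1a, the gene of a coactivator that drives the making of mitochondria, and counts that ignore strand cannot tell the genes apart where they overlap. Ppargc1a itself had a log2 fold change of 0.01 (adjusted p = 0.993).

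Irs2 encodes an adaptor that carries the signal of the insulin and IGF receptors into the cell. It stood at 37.1, 52.4, 46.9 and 59.3 CPM in GFP mice 1 to 4 and at 134, 110.2, 125 and 179 CPM in AAV-Kl mice 1 to 4. The lowest AAV-Kl mouse was well above the highest GFP mouse. The log2 fold change was 1.49 ± 0.30, with an adjusted p of 0.358 in edgeR and 0.000977 in DESeq2. Across 21 genes of insulin and IGF signalling 2 were higher and 2 lower (19%, against 7.13% of all genes), with a median of 0.03. Igfbp2, which binds IGF in the blood, was higher by 1.76, a call lost without AAV-Kl 3 (value 1.32), GFP 2 (1.72) or GFP 4 (1.60). Pik3r1 and Pik3ip1, a subunit and an inhibitor of the kinase PI3K, had log2 fold changes of -0.95 and -0.47. GFP mouse 4 held 196 CPM of Pik3r1 against 31.2 to 53.3 CPM in the other 7 mice, and without it the Pik3r1 value was -0.0009 and no longer called. The Pik3r1 call was also lost without AAV-Kl 1 (value -0.85) or AAV-Kl 4 (-0.83), and that of Pik3ip1 without GFP 4 (-0.29). Without GFP 3, 2 genes of the list were higher and 5 lower, and without GFP 4, 3 were higher and 0 lower.

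Nr4a3, an orphan nuclear receptor that muscle makes within hours of exercise or adrenergic stimulation, was 11.8, 17.7, 17.1 and 39.3 CPM in GFP mice 1 to 4 and 64.2, 63.5, 61.3 and 96.2 CPM in AAV-Kl mice 1 to 4. The groups were apart, and the highest mouse of each was mouse 4. The log2 fold change was 1.73 ± 0.45 (adjusted p = 0.462). Fosl2, a subunit of the transcription factor AP-1, showed 33.6, 58.9, 46.7 and 24.6 CPM against 106, 80.1, 63.1 and 106 CPM, also apart, with a log2 fold change of 1.12 ± 0.39. Immediate early genes, which cells switch on at once after a stimulus, went both ways. Of 21 tested 2 were higher, Nr4a3 itself and Atf3, and 4 lower (28.6%, against 7.13% of all genes), with a median of -0.26. Without AAV-Kl 3, 1 was higher and 6 lower. Atf3, a stress factor, was 25.9 to 47.7 CPM in AAV-Kl mice 1, 2 and 4, 178 CPM in AAV-Kl mouse 3 and 10.5 to 31.7 CPM in GFP mice, and its call was lost without AAV-Kl mouse 3 (log2 fold change 1.74 with it and 0.85 without). Ier2 and Zfp36, the latter a protein that marks inflammatory messages for decay, fell by 1.004 and 0.94 on the log2 scale. GFP mouse 4 was the lowest GFP mouse for Ier2, Zfp36 and Fosl2.

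**Figure D2:**
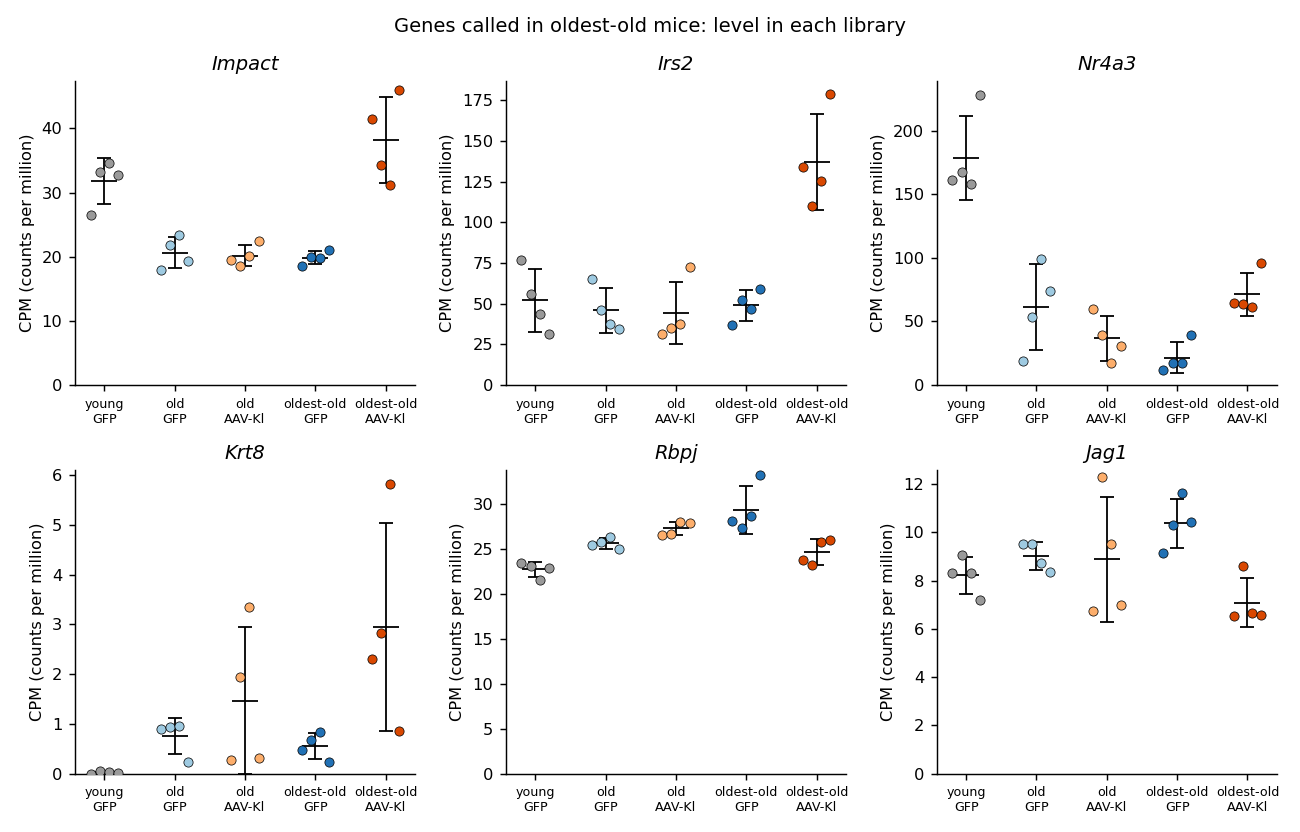
Level of 6 genes in each of the 20 libraries fitted together, in CPM, with 1 point per mouse, a bar at the mean and whiskers of 1 SD over 4 mice. Impact and Irs2 are raised in oldest-old AAV-Kl mice alone among the aged groups, Nr4a3 declines with age and is raised there, Krt8 is uneven, and Rbpj and Jag1 are lower there than in oldest-old GFP mice.

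Most of the other protein-coding genes with the lowest p values among those higher and apart differed by less. Ubtd1, a partner of ubiquitin-conjugating enzymes, stood at 14.7 to 16.6 CPM in GFP mice and 18.5 to 21.03 CPM in AAV-Kl mice, a log2 fold change of 0.32 ± 0.06, with an adjusted p of 0.358 in edgeR and 0.00535 in DESeq2. Pomp, the chaperone that assembles the proteasome, was 50.0 to 53.6 CPM in GFP mice and 58.3 to 70.8 CPM in AAV-Kl mice, a log2 fold change of 0.27. Tra2a, a splicing factor, had 0.27, Pick1, a scaffold of membrane receptors, 0.25, Katna1, which severs microtubules, 0.24, and Slc39a13, a zinc transporter, 0.19 as log2 fold change. Slc46a1, the transporter that takes up folate, was higher by 0.997 at a level of 0.480 to 1.95 CPM. Both transporters belong to the 266 solute carriers tested, of which 9 were higher and 8 lower with a median of 0.04. The share called, 6.39%, was near the 7.13% of all genes. Without GFP 4, 14 were higher and 3 lower, and without AAV-Kl 3, 7 were higher and 13 lower. The largest increases among genes of at least 1 CPM included Krt8, a keratin, at 0.473, 0.673, 0.848 and 0.232 CPM in GFP mice 1 to 4 and 2.31, 2.83, 5.82 and 0.850 CPM in AAV-Kl mice 1 to 4. AAV-Kl mouse 4 barely exceeded the highest GFP mouse, and the log2 fold change was 2.42 ± 0.73 (adjusted p = 0.587). Klhdc8a, a kelch repeat protein, was higher by 1.06. Marco, a scavenger receptor of macrophages, owes its place in the same ranking to AAV-Kl mouse 2 alone, with 25.5 CPM there and at most 0.058 CPM in each of the other 7 libraries, and without that mouse it was not called, with a log2 fold change of 2.0008 in place of 9.07.

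Among genes that were lower, Foxc1, a transcription factor that shapes vessels and mesenchyme, was 4.27, 3.56, 3.39 and 4.14 CPM in GFP mice 1 to 4 and 2.75, 2.44, 2.75 and 2.55 CPM in AAV-Kl mice 1 to 4. All AAV-Kl mice were below all GFP mice, and the log2 fold change was -0.55 ± 0.12, with an adjusted p of 0.358 in edgeR and 0.0197 in DESeq2. Edn1, the vasoconstrictor endothelin, was 3.20 to 5.75 CPM in GFP mice and 1.65 to 2.27 CPM in AAV-Kl mice, a log2 fold change of -1.08 ± 0.28. Rnase13, a member of the ribonuclease A family, was 0.910, 1.44, 2.41 and 5.21 CPM in GFP mice and 0.426, 0.818, 0.763 and 0.502 CPM in AAV-Kl mice, the largest decrease of this ranking at -1.99. Mmp11, a matrix protease, had a log2 fold change of -0.92, Gpnmb, a glycoprotein of macrophages, -0.76, and Zc3h6, an RNA-binding protein, -0.77. For Rnase13, Mmp11, Zc3h6 and Gpnmb the highest library was GFP mouse 4, and without it the values shrank to -1.33, -0.51, -0.46 and -0.51 in that order, with the groups still apart and the genes still called. Polg2, the accessory subunit of the mitochondrial DNA polymerase, fell by 0.55, Plagl2, a zinc finger factor, by 0.47, and Topors, a ubiquitin ligase of the nucleus, by 0.25 on the log2 scale. In TGF-beta signalling 2 of 26 genes were higher and 2 lower (15.4%, against 7.13% of all genes), with a median of 0.04. The numbers were 3 and 3 with DESeq2, and 4 and 2 without AAV-Kl 3, AAV-Kl 4, GFP 2 or GFP 3. Skil, a repressor of SMAD proteins, was higher by 0.53, Smad3, which transmits the signal, by 0.47, and the ligand Bmp4 fell by 0.58 on the log2 scale.

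In Notch signalling, by which neighbouring cells instruct each other, 3 of 14 genes tested were called, all lower, against 3.56% of all genes. The median of the list was -0.03, and 5 of the 14 had a positive value. Rbpj, the DNA-binding protein of the pathway, was 28.1, 27.4, 28.7 and 33.2 CPM in GFP mice 1 to 4 and 23.8, 23.2, 25.8 and 26.02 CPM in AAV-Kl mice 1 to 4, a log2 fold change of -0.25 ± 0.06 (adjusted p = 0.408). The ligand Jag1 was 9.15, 10.3, 11.6 and 10.4 CPM in GFP mice and 6.53, 8.59, 6.66 and 6.57 CPM in AAV-Kl mice, a log2 fold change of -0.55 ± 0.15. In both genes the groups were apart. The ligand Dll4, made by endothelium, had a log2 fold change of -0.42, a call lost without AAV-Kl 1 (-0.36) or GFP 3 (-0.34). Without GFP 2, and with the 8 libraries alone, 1 member was called higher beside 3 lower. None of the 15 endothelial marker genes was called by edgeR or DESeq2, and their sum was 532 to 642 CPM in GFP mice and 512 to 648 CPM in AAV-Kl mice. That count was 1, higher, without GFP 1 or GFP 4, and 1, lower, with the 8 libraries alone.

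Many zinc finger proteins bind DNA to silence genes and mobile elements. The genes named Zfp, taken by symbol, also include a few of other function such as Zfp36, and more of them were called lower than higher. Of 321 tested, 43 were lower and 1 higher, against 3.56% and 3.57% of all genes, and their median log2 fold change was -0.09 beside 0.01 for all genes. Negative values were found for 240 of them. In 18 of the family the AAV-Kl libraries all lay below the GFP libraries, and in 2 they all lay above, where all 17465 genes held 239 and 225. Zfp507 was 23.6, 22.3, 23.2 and 27.1 CPM in GFP mice 1 to 4 and 18.4, 16.97, 20.6 and 21.2 CPM in AAV-Kl mice 1 to 4. Its log2 fold change was -0.32 ± 0.07, with an adjusted p of 0.358 in edgeR and 0.0408 in DESeq2. Zfp949 had 9.27 to 10.5 CPM in GFP mice and 7.05 to 7.93 CPM in AAV-Kl mice, a log2 fold change of -0.33 ± 0.08, and Zfp574 had -0.28 ± 0.07. The related gene Zkscan8, outside the list, had -0.28 ± 0.06. The one higher member was Zfp948, with 0.45. GFP mouse 4 had the highest value of Zfp507, Zfp949 and Zfp574. Without GFP 4, 27 members were lower, and without AAV-Kl 2, 26 were. The number fell further to 17 with the 8 libraries alone, to 8 when these were fitted with the replicate number as a block, and to 22 without the filter on low counts, with 1 to 2 higher in these fits.

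Chaperones that cells make in response to heat or misfolded protein had more members called higher than most lists. Of 17 tested, 9 were higher and 0 lower, in edgeR and in DESeq2 (52.9% called in edgeR, against 7.13% of all genes). All 17 had a positive log2 fold change, with a median of 0.24. The strongest members are inducible. Hspa1b, one of the Hsp70 proteins, was 7.12, 4.83, 3.11 and 3.42 CPM in GFP mice 1 to 4 and 5.76, 12.6, 63.4 and 9.89 CPM in AAV-Kl mice 1 to 4. AAV-Kl mouse 3 exceeded every other mouse several-fold, and AAV-Kl mouse 1 lay within the GFP range. The log2 fold change was 2.31 ± 0.58 (adjusted p = 0.462). Hspa1a, its near-identical neighbour, had 1.95, and reads of the pair cannot be assigned with certainty. Dnajb1, a partner of Hsp70, was 7.45, 10.6, 9.24 and 5.51 CPM in GFP mice and 10.04, 20.1, 71.5 and 13.4 CPM in AAV-Kl mice, with a log2 fold change of 1.81 ± 0.44, an adjusted p of 0.462 in edgeR and one of 0.0163 in DESeq2. The constitutive Hspa8 was one of 2 members that were higher in every AAV-Kl mouse than in any GFP mouse. It was 984, 863, 744 and 838 CPM in GFP mice and 1034, 1069, 1216 and 993 CPM in AAV-Kl mice, a log2 fold change of 0.33 ± 0.09. Without AAV-Kl mouse 3, 5 members were called and 0 were lower. Dnajb1, Hspa1b and Hspa8 were among them, at 0.83 for Dnajb1 and 1.03 for Hspa1b, while Hspa1a was not (0.69). With the 8 libraries alone 8 members were called, and 4 when these were fitted with the block.

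**Figure D3:**
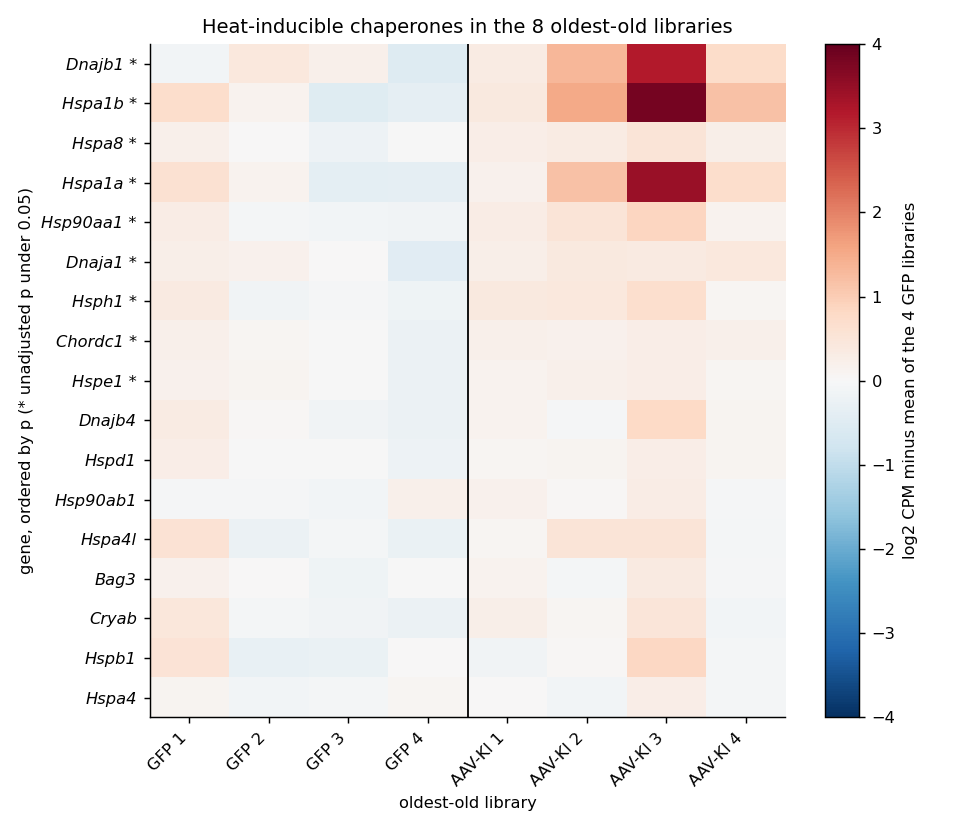
Level of 17 heat-inducible chaperones in each oldest-old library, as log2 CPM minus the mean of the 4 GFP libraries, with red for higher and blue for lower. AAV-Kl library 3 is the reddest column, and the 9 called genes, Hspa8 among them, are above the GFP mean in all 4 AAV-Kl libraries.

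Promoters are shown because all 17 chaperones had a positive log2 fold change, although 9 were called and AAV-Kl mouse 3 was the highest of the AAV-Kl mice in most. The region from 250 bases before to 50 bases after the gene's start was available from RefSeq (GRCm38.p6) for 13 of the 17 chaperones, 7 of them among the 9 called, and was searched on both strands for GAANNTTC, the paired unit to which heat shock factor binds. It was found in 9 of the 13 and in 6 of the 7 called, against 7.86% of 32851 promoters. The called gene without it was Dnajb1. Here and below, a gene with more than 1 promoter counted if any held the motif, while the percentages are of single promoters. The list is of heat-inducible genes by definition, so the 9 of 13 is not a finding of these libraries. The pair in the other order, TTCNNGAA, was in 5 of the 13 (8.52% of all promoters), and a run of 3 units that holds both was in 4 (0.603%). Hspa1a and Hspa1b are shown as the most inducible pair, and Hsph1 and Chordc1, chosen after their values were seen, as members elsewhere in the genome. Hsph1 was higher by 0.38 and Chordc1 by 0.21. Both calls were lost without AAV-Kl 3 (0.29 and 0.19), and that of Chordc1 also without GFP 4 (0.13). Capitals mark GAANNTTC. The regions are chr17:34972107-34972406 for Hspa1a, chr17:34959189-34959488 for Hspa1b and chr5:149636266-149636565 for Hsph1, all on the minus strand, and chr9:18292017-18292316 for Chordc1 on the plus strand.
Hspa1a: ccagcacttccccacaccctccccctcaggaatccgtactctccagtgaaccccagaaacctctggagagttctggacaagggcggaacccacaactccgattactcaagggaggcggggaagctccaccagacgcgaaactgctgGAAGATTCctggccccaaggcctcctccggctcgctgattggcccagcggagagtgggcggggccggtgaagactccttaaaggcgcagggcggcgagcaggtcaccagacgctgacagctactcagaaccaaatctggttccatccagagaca
Hspa1b: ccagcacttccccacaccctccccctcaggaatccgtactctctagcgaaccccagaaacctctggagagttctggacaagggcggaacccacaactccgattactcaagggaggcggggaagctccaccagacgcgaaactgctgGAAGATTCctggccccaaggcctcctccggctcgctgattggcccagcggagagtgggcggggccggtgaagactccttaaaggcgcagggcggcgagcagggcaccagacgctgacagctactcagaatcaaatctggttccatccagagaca
Hsph1: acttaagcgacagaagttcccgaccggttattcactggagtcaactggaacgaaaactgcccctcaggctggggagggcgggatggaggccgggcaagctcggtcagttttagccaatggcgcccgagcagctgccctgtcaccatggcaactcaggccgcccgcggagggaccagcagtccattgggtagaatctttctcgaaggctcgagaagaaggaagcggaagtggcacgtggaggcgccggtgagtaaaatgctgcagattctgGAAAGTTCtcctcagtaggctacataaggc
Chordc1: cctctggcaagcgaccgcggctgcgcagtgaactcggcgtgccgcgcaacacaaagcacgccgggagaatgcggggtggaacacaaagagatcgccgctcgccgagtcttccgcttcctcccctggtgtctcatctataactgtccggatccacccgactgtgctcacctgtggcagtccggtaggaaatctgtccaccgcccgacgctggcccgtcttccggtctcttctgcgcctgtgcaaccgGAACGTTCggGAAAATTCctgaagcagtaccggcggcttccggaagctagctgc
The Hspa1a and Hspa1b regions differ at 4 of 300 bases and hold the motif in the same place, Hsph1 holds it once, and Chordc1 holds it in 2 copies close together. A match of these letters describes the sequence and does not show that a factor was bound.

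Some nuclear genes for mitochondrial ribosomal proteins and the respiratory chain were called higher by small amounts, while no gene of the mitochondrial genome was called. Of 76 mitochondrial ribosomal proteins, which translate the messages of the organelle, 13 were higher and 0 lower in edgeR, 15 higher and 0 lower in DESeq2, and 66 had a positive value. The edgeR share was 17.1%, against 7.13% of all genes, and the median was 0.10. In complex I of the respiratory chain 4 of 36 were higher (11.1%, median 0.12). In complexes II to IV 6 of 29 were (20.7%, median 0.16), and in the ATP synthase 2 of 17 (11.8%, median 0.13). Each list held 0 lower genes in edgeR and in DESeq2. Mrps22 was 13.4, 12.96, 12.7 and 10.1 CPM in GFP mice 1 to 4 and 13.8, 14.2, 15.2 and 14.4 CPM in AAV-Kl mice 1 to 4, a log2 fold change of 0.23 ± 0.08. Uqcrb, a subunit of complex III, was 209.7, 208, 204 and 171 CPM in GFP mice and 232, 212, 247 and 223 CPM in AAV-Kl mice, a log2 fold change of 0.20 ± 0.07. In both genes the groups were apart by little, and GFP mouse 4 was the lowest. Without it the value of Mrps22 was 0.15. Of the 13 protein genes of the mitochondrial genome 0 were called in edgeR, in DESeq2 and in each fit without 1 library, with a median of 0.01. Of 83 cytosolic ribosomal proteins 1 was called, higher (1.2%, against 7.13% of all genes). Higher members numbered 5 without GFP 4 and 2 without AAV-Kl 4, and without GFP 2 there were 0 higher and 1 lower. The count was 0 without AAV-Kl 1, AAV-Kl 3 or GFP 3. Other nuclear genes for mitochondrial proteins went both ways. Of 40 mitochondrial carriers 4 were higher and 2 lower (15%, against 7.13% of all genes). This count was 7 higher and 1 lower without AAV-Kl 1, and 4 higher and 0 lower without GFP 4. Of 20 genes of mitochondrial biogenesis and dynamics 0 were called by edgeR and 1 by DESeq2. Polg2, given above, was lower.

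The counts for mitochondrial ribosomal proteins and the respiratory chain depended on single mice, on the libraries fitted, on the test and on the filter. Without GFP 4 there were 3 mitochondrial ribosomal proteins called, 0 genes of complex I, 1 of complexes II to IV and 1 of the ATP synthase. Without AAV-Kl 3 these numbers were 3, 0, 1 and 0, and without GFP 2 they were 21, 21, 18 and 9. Complex I had 9 without AAV-Kl 2 and 8 without GFP 3, complexes II to IV 10 and the ATP synthase 5 without AAV-Kl 2. With DESeq2 they were 15, 9, 7 and 2, and without the filter on low counts 15, 13, 10 and 5. With the 8 libraries alone they were 1, 0, 1 and 0, and with the block as well 1, 0, 0 and 0. All of these calls were higher with AAV-Kl.

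Sterol synthesis, the route from acetyl-CoA to cholesterol, was higher in 7 of 21 genes and lower in 0, in edgeR and in DESeq2. The edgeR share was 33.3%, against 7.13% of all genes. The median was 0.23, with positive values in 19. The count was 5 to 8 when each library was left out, 5 with the 8 libraries alone and 2 when these were fitted with the block. Srebf2, the transcription factor that governs the pathway, was 24.1, 22.1, 25.1 and 23.2 CPM in GFP mice 1 to 4 and 27.5, 32.5, 31.6 and 28.5 CPM in AAV-Kl mice 1 to 4, and the groups were apart. Its log2 fold change was 0.34 ± 0.11 (adjusted p = 0.616). Mvk, the mevalonate kinase, was 5.64 to 6.61 CPM in GFP mice and 7.003 to 8.07 CPM in AAV-Kl mice, a log2 fold change of 0.29 ± 0.09. Fdps, which makes farnesyl pyrophosphate, was higher by 1.34 at a level under 0.43 CPM in every library. Mvd, the enzyme after Mvk and its partner kinase, was higher by 0.42, a call lost without AAV-Kl 3 (0.23) or GFP 3 (0.32). The promoters of 13 members were searched for the sterol regulatory element as TCACNCCAC, found in 1 of them and in 1.24% of all promoters, and as TCACNNCAC, found in 4 (3.77%). Neither was in the 6 called members with a promoter. CCAAT, the box of the factor NF-Y, was in all 13, against 37.4% of all promoters.

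A few genes of developing and of denervated fibres were called higher, in calls that depended on single mice. Actc1, the actin of the heart and of embryonic muscle, was 192, 118, 247 and 15.6 CPM in GFP mice 1 to 4 and 407, 464, 364 and 255 CPM in AAV-Kl mice 1 to 4. The groups were apart, with GFP mouse 4 far below the rest, and the log2 fold change was 1.38 ± 0.60 (adjusted p = 0.674). Of 13 genes of the developmental sarcomere and of regeneration 3 were higher and 0 lower in edgeR and in DESeq2. The list had a median of 0.14 and 5 negative values, and 23.1% of it was called in edgeR, against 7.13% of all genes. The others called were Mymx, which fuses myoblasts, at 1.35, and Myog, a factor of muscle differentiation, at 0.83. None of these calls held without GFP 2 (Actc1 1.31, Mymx 1.14, Myog 0.82), where the list held 0 higher and 1 lower gene. That of Actc1 also ended without AAV-Kl 1 (1.34) or AAV-Kl 2 (1.26), and that of Mymx without AAV-Kl 1 (1.28), AAV-Kl 3 (1.14) or GFP 4 (1.12). The list then held 1 called gene without AAV-Kl 1, AAV-Kl 2, AAV-Kl 3 or GFP 4. Among 20 genes of denervation and the neuromuscular junction, with a median of 0.20, 20% were called in edgeR, against 7.13% of all genes. In edgeR and in DESeq2 4 were higher and 0 lower. These were Myog, Chrna1, a subunit of the acetylcholine receptor, at 0.44, Gadd45a, a stress gene of denervated muscle, at 0.87, and Cdkn1a, an inhibitor of the cell cycle, at 1.11. Cdkn1a was 93.2, 74.1, 73.9 and 121 CPM in GFP mice and 149, 179, 390.3 and 62.6 CPM in AAV-Kl mice. AAV-Kl mouse 4 was the lowest and AAV-Kl mouse 3 the highest of the 8. Without AAV-Kl 3 none of these was called, at 0.55 for Myog, 0.32 for Chrna1, 0.35 for Gadd45a and 0.53 for Cdkn1a, and the list held 1 higher and 1 lower member. Without GFP 4, 2 were called, with Myog at 0.75 and Chrna1 at 0.39 no longer among them. The remaining losses were without AAV-Kl 2 (Myog 0.76, Chrna1 0.37), GFP 2 (Chrna1 0.33, Gadd45a 0.72) and GFP 3 (Myog 0.87, Gadd45a 0.78). Of 10 slow and 14 fast sarcomere genes 0 were called by edgeR or DESeq2. All 10 slow genes had a negative value, with a median of -0.31, and 7 were called lower without AAV-Kl 3. Without GFP 1, 1 slow gene was called higher and 0 lower, and without GFP 3, 1 was called lower. Without GFP 2, 2 fast genes were higher and 1 lower.

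Genes of red blood cells and of the interferon response were called in opposite directions, each resting on few mice. Of 7 erythroid genes 5 were lower (71.4%, against 7.13% of all genes), with a median of -1.37. Hbb-bs, an adult beta-globin, was 285, 55.3, 38.9 and 269 CPM in GFP mice 1 to 4 and 64.4, 80.8, 58.6 and 47.1 CPM in AAV-Kl mice 1 to 4. The AAV-Kl mice lay below GFP mice 1 and 4 and above GFP mouse 3, and AAV-Kl mouse 4 was also below GFP mouse 2. The log2 fold change was -1.37 ± 0.62 (adjusted p = 0.689), with GFP mice 1 and 4 far above the rest. The same pair was high for Alas2, the enzyme that starts haem synthesis in red cells, with 24.8 and 24.1 CPM against 2.37 to 5.38 CPM in the other 6 libraries. Its log2 fold change was -1.70 ± 0.68. The list held 0 called genes without GFP 1, GFP 4 or AAV-Kl 4, 2 without AAV-Kl 3 and 3 without AAV-Kl 1. In these fits, in that order, Hbb-bs was not called at -0.95, -1.0033, -1.25, -1.33 and -1.38, and in the first 3 of them Alas2 was not called at -1.25, -1.27 and -1.54. The copies of alpha-globin are near-identical, so their reads cannot be assigned with certainty. Of 27 interferon-stimulated genes 5 were higher and 0 lower in edgeR (18.5%, against 7.13% of all genes). In DESeq2 2 were higher and 1 lower. Igtp, a GTPase against intracellular microbes, was 16.4, 14.5, 12.8 and 21.4 CPM in GFP mice and 16.1, 358, 15.8 and 16.9 CPM in AAV-Kl mice, high in AAV-Kl mouse 2 alone. Its log2 fold change was 2.65 ± 0.78, and 0.0016 without that mouse. Without AAV-Kl 2 the list held 0 higher and 3 lower genes, and without GFP 3 it held 2 higher and 2 lower. With the 8 libraries alone 2 erythroid genes were lower and 1 interferon-stimulated gene higher, and with the block as well 0 of either list, against 5 erythroid genes lower in DESeq2 on all libraries.

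**Figure D4:**
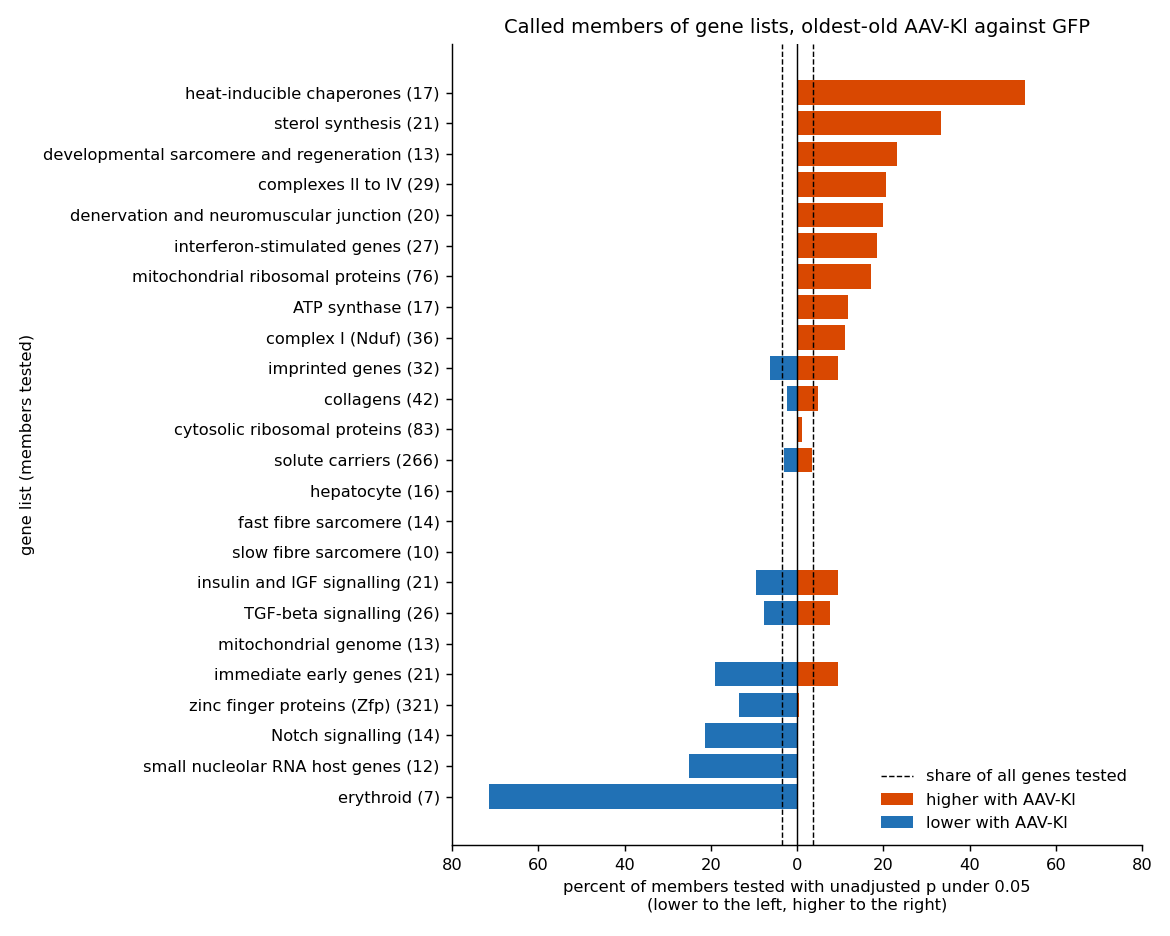
Percent of the tested members of 24 gene lists that were called higher (orange, to the right) or lower (blue, to the left) with AAV-Kl, with dashed lines at the shares of all genes, 3.57% and 3.56%. Chaperones have the largest share higher and erythroid genes the largest share lower, and the erythroid and interferon bars rest on the mice named in the text.

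Outside the erythroid list, markers of cell types gave few calls. Of 92 lists examined, 25 held 0 genes called by edgeR, 20 of these also held 0 called by DESeq2, and the other lists among them held 5 members called by DESeq2. In 7 lists, among them hepatocyte, keratinocyte, MHC class I and MHC class II genes, 0 members were called in each fit without 1 library. Of 16 hepatocyte genes 0 were called by edgeR and 1 by DESeq2. The 10 keratinocyte genes summed to 2.84 to 8.50 CPM in GFP mice, 2.98 to 4.29 CPM in AAV-Kl mice 1 to 3 and 27.2 CPM in AAV-Kl mouse 4, and 0 were called by either tool. The 15 macrophage markers summed to 201, 130, 157 and 146 CPM in GFP mice 1 to 4 and 118, 319, 69.0 and 137 CPM in AAV-Kl mice 1 to 4. Of these 1 was called, Gpnmb (6.67%, near the 7.13% of all genes), and 2 were without AAV-Kl 2, all lower. Of 12 genes of pericytes and smooth muscle 2 were lower in edgeR (16.7%) and in DESeq2, with a median of -0.01. This count was 3 without AAV-Kl 1, 1 without AAV-Kl 2 or GFP 4 and 0 without AAV-Kl 3 or GFP 3. All 15 Schwann cell genes had a negative value, with a median of -0.28, and 1 was called by edgeR (6.67%) and by DESeq2. Without AAV-Kl 1, 5 were called, and without AAV-Kl 2, AAV-Kl 3 or GFP 1, 0 were. The 12 adipocyte markers summed to 8916, 5563, 5875 and 5677 CPM in GFP mice and 5838, 10165, 7870 and 7917 CPM in AAV-Kl mice. The groups overlapped, 11 of the 12 had a positive value, with a median of 0.42, and 0 were called by either tool, with 1 called, higher, without AAV-Kl 1 or GFP 1. Of 42 collagens 2 were higher and 1 lower, shares near those of all genes, and their sums were 758, 838, 781 and 410 CPM in GFP mice and 842, 920, 489 and 859 CPM in AAV-Kl mice. GFP 4 and AAV-Kl 3 were low. Without AAV-Kl 3, 4 collagens were higher and 1 lower, without GFP 1, 0 and 1, and without GFP 3, 0 of either.

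Among called genes, the direction also differed between short and long genes. Protein-coding genes were divided into 5 classes of nearly equal number by the total length of their exons, a comparison chosen after the zinc finger and mitochondrial results were seen. In the class with the shortest exons, 114 to 2474 bases, 172 genes were higher and 67 lower, with a median log2 fold change of 0.05. In the class with the longest, 7590 to 123179 bases, 56 were higher and 148 lower, with a median of -0.02. Without GFP 4 fewer genes were called in both of these classes and in both directions, with 113 higher and 39 lower among the shortest and 46 higher and 58 lower among the longest. Without AAV-Kl 3, 112 of the shortest were higher and 76 lower, and without AAV-Kl 2, 60 of the longest were higher and 87 lower. In each library the median deviation of the shortest class minus that of the longest was -0.012, -0.019, 0.0038 and -0.107 (log2) in GFP mice 1 to 4 and 0.0063, 0.071, 0.057 and 0.0013 in AAV-Kl mice 1 to 4. GFP mouse 4 was lowest, the groups overlapped, and the difference was 0.067 (two-sided exact permutation test, p = 0.0571). Ribosomal and respiratory chain genes are short, and the part of length in their values was not tested. From the shortest class to the longest, 2, 14, 15, 7 and 5 Zfp genes were called lower among 34, 80, 78, 73 and 56 tested, where all protein-coding genes had 67, 88, 93, 110 and 148 lower among 2860, 2858, 2855, 2859 and 2857. The medians of the Zfp genes were -0.05, -0.11, -0.10, -0.05 and -0.11.

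**Figure D5:**
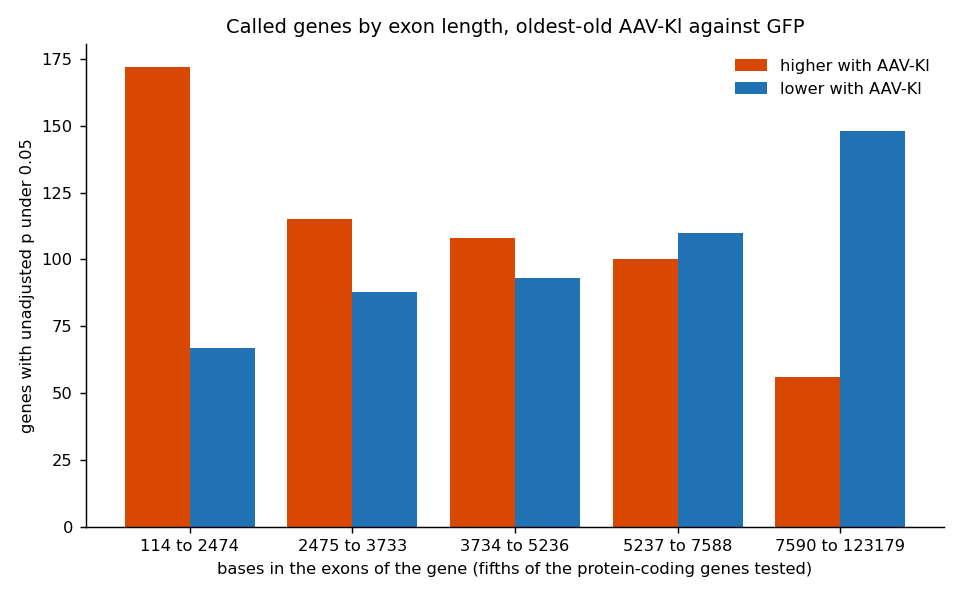
Number of protein-coding genes called higher (orange) or lower (blue) with AAV-Kl in each of 5 classes by exon length, in bases. Higher genes go from 172 in the shortest class to 56 in the longest, and lower genes from 67 to 148.

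Old mice, 21 to 24 months of age, received the same vectors, and in them 317 genes were called (1.82%). The old and oldest-old groups share no mouse, so the difference of the contrasts was tested for each gene. The genes and lists given here were chosen for their values in the oldest-old mice, which also enter the difference, so their counts are not evidence that the ages differ. By edgeR 890 genes had an unadjusted p under 0.05 (5.1%), near the 873 that make up 5% of the genes tested. Of these, 418 had the higher value in oldest-old mice and 472 the lower. After adjustment 0 were under 0.05, the lowest being 0.165, that of Impact. DESeq2 gave 889 unadjusted and 1 adjusted. Impact had a log2 fold change of -0.03 in old mice and a difference of 0.98 ± 0.16. The value for Irs2 was -0.06 in old mice, with a difference of 1.54 ± 0.41, and for Nr4a3 -0.74, with a difference of 2.47 ± 0.63. Gm43605 had -0.01 in old mice, at 0.032 CPM in old GFP mice and 0.030 CPM in old AAV-Kl mice, and a difference of 3.58 ± 0.96. Rbpj had 0.09 in old mice and a difference of -0.34 ± 0.08, and Zfp949 0.22 and -0.54. Each of these differences was called, and for those after Impact the adjusted p was 0.942. Among the lists, 9 of 17 chaperones differed between ages, all with the higher value in oldest-old mice, and their median in old mice was -0.07. For mitochondrial ribosomal proteins 13 of 76 differed, all higher, with a median of -0.05 and 6 called lower in old mice. In complexes II to IV 8 of 29 and in complex I 8 of 36 differed, all higher. Of Zfp genes 2 differed upward and 23 downward among 321, from a median of 0.01 in old mice. Sterol synthesis differed in 4 of 21, all higher. In Notch signalling 1 gene differed upward and 4 downward among 14.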

How the data were processed

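Raw counts of reads per gene, deposited by the authors for each library, were used as they stand, without regard to strand. The authors aligned reads to GRCm38 (mm10) with STAR, checked them with FastQC and compared groups with DESeq2. The members and gene lists were chosen with earlier results of these data known. The 20 libraries of the 5 AAV groups were fitted together in edgeR 4.0.16 on R 4.3.3 (TMM, filterByExpr, robust dispersions, quasi-likelihood test with the legacy option) and p adjusted by Benjamini-Hochberg over 17465 genes. CPM use TMM library sizes. DESeq2 1.42.0 was the other test. Single values per mouse were compared by an exact permutation test. The 4 combinations of the robust and legacy options of edgeR were run before one was kept as the way the data had been processed earlier.

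Genes named are those with adjusted p under 0.05, the 12 protein-coding genes per direction with the lowest p among called genes whose groups were apart, the 8 per direction with the largest change among these at 1 CPM or more, up to 4 called members and the most abundant member of each list described, and genes within 500 kb of the first kind. Some of these are left out of the text. A family such as Zfp or Slc holds every gene whose symbol follows the family's pattern. Alternatives were DESeq2, its size factors, no filter on low counts, the 8 libraries alone, a replicate block and leaving out each library. The promoter motifs, exon length comparison and choice of lists to describe followed sight of the data. Also searched for, without a list, were TGACG (in 20.8% of promoters), TGACGTCA (1.79%), TGAGTCA (5.2%) and CACGTG (7.15%). The smallest of the 20 libraries, old GFP 3, holds 36415886 reads on genes, and depth limits genes under 1 CPM.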

Additional observations from a re-analysis of the deposited data

Results flagged for a closer look

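Each group of 4 values in the text was examined for a mouse whose gap to the nearest other mouse took up more of the group's range than the 95% critical value of Dixon's test. Of 228 groups 29 held such a mouse, where chance gives about 1 in 20 for independent values of a normal distribution. These values overlap between lists and were partly chosen for their size, so that share is only a guide. GFP mouse 4 was that mouse in 9 groups, AAV-Kl mouse 2 in 9, AAV-Kl mouse 3 in 6 and AAV-Kl mouse 4 in 3, with 1 each for GFP mice 1 and 3. Causes were not tested.

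GFP mouse 4 was far above the other GFP mice in the sums of the integrated stress response (1371 CPM), cytosolic ribosomal proteins (13095 CPM), small nucleolar RNA host genes (50.4 CPM) and muscle atrophy genes (3820 CPM), and far below them in mitochondrial ribosomal proteins (1889 CPM). It was also high for Pik3r1 (196.3 CPM), Zfp949 (10.53 CPM) and Marco (0.03098 CPM, with 0 in the others) and low for Uqcrb (171.3 CPM). GFP mouse 1 was high in adipocyte markers (8916 CPM) and GFP mouse 3 in keratinocyte genes (8.5 CPM).

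AAV-Kl mouse 2 stood above the other AAV-Kl mice in genes detected (26413) and in the sums of hepatocyte genes (88.1 CPM), interferon-stimulated genes (1209 CPM), MHC class I genes (1084 CPM) and markers of T and natural killer cells (29 CPM). It was high for Marco (25.51 CPM), Igtp (358.3 CPM) and Jag1 (8.59 CPM), and low for Zfp949 (7.052 CPM). AAV-Kl mouse 3 was high in the sum of the integrated stress response (1043 CPM) and for Atf3 (178.2 CPM), Dnajb1 (71.52 CPM), Hspa1b (63.37 CPM) and Hspa1a (45.61 CPM), and low for Il6 (0.01908 CPM). AAV-Kl mouse 4 was high in the sums of muscle fibre markers (182164 CPM) and keratinocyte genes (27.2 CPM) and for Nr4a3 (96.23 CPM).

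For 3 genes of the text the AAV-Kl libraries lay wholly to one side of the GFP libraries in oldest-old mice and wholly to the other side in old mice. Further genes of the text had opposite signs at the 2 ages with overlap in old mice. The difference of the log2 fold changes, oldest-old minus old, was -0.34 for Rbpj, 0.23 for Mrps24 and -0.54 for Zfp949, and the interaction test called all of them at an unadjusted p under 0.05, with an adjusted p of 0.942 for each.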

How the results depend on the processing

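The number of genes at an unadjusted p under 0.05 was 606 with the 8 libraries alone and 813 to 1642 without each library, against 1246. With the replicate number as a block in the 8 libraries alone it was 344, against 606 without the block, although libraries of equal number were negatively correlated (-0.161 on average, others 0.0571), which gives no sign of pairing, and the labels do not say whether the numbers pair mice. Genes with an adjusted p under 0.05 numbered 15 with DESeq2, 1 without the filter on low counts, 1 without each library, 0 with the 8 libraries alone in edgeR and 0 with the block in these 8, against 2. DESeq2 on the 20 libraries gave 1294 unadjusted. Its 15 adjusted genes were Impact, Irs2, Ubtd1, Pomp, Rnase13, Dnajb1, Foxc1, Tra2a, Zkscan8, Polg2, Plagl2, Zfp507, Topors, Ptgs2 and 1810026B05Rik. Ptgs2 and 1810026B05Rik are not described above. Their log2 fold changes in DESeq2 were -2.01 and -0.315, with adjusted p of 0.0163 and 0.0197. Without the filter 61.2% of called genes were higher, against 50.1%. The adjusted p of Impact was 0.126 with the 8 libraries alone and 0.508 with the block in these 8. The cause was not tested, beyond that fewer libraries were fitted. The 3 other combinations of edgeR options, chosen after seeing the data, gave 1254 to 1380.

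Of 67 called genes described in the text, 48 kept p under 0.05 without each library. The number was 65 with DESeq2, 67 with its size factors and 65 without the filter. It was 59 of 65 with the 8 libraries alone and 48 of 65 with the block. None changed direction in these fits. Zfp genes called lower numbered 17 with the 8 libraries alone, 8 with the block and 22 without the filter, against 43. Mitochondrial ribosomal proteins called higher numbered 1, 1 and 15 in these fits, against 13. Genes of low level, such as Gm43605 and Fdps, are limited by depth.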

Other observations

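Genes of chemokines and of interleukins and their receptors were called in both directions. Cxcl1, a chemokine that draws neutrophils, was 2.26, 1.11, 2.78 and 0.325 CPM in GFP mice 1 to 4 and 0.291, 0.409, 0.210 and 0.464 CPM in AAV-Kl mice 1 to 4, a log2 fold change of -2.22 ± 0.64 (edgeR, adjusted p = 0.556). GFP mouse 4 lay within the AAV-Kl range. Of 23 chemokine genes 1 was higher and 2 lower (13%, against 7.13% of all genes), with a median of -0.01. The counts were 2 and 3 without GFP 1 and 0 and 1 without GFP 3. Il6, a cytokine that working muscle releases, fell by 1.34 on the log2 scale, at 0.155 to 0.478 CPM in GFP mice and 0.019 to 0.155 CPM in AAV-Kl mice. Of 46 interleukins and their receptors 1 was higher and 3 lower (8.7%, against 7.13% of all genes), with a median of 0.07. These counts also changed direction. They were 0 higher and 1 lower without GFP 4, 0 and 5 without AAV-Kl 2, and 3 and 2 without AAV-Kl 4. With the 8 libraries alone they were 1 and 0.

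Host genes of small nucleolar RNAs, which guide the modification of ribosomal RNA, were lower in 3 of 12 and higher in 0, in edgeR and in DESeq2. In edgeR 25% were called, against 7.13% of all genes, and the median was -0.32. Snhg15 was 1.802, 1.54, 1.89 and 1.46 CPM in GFP mice and 0.911, 1.13, 0.687 and 1.31 CPM in AAV-Kl mice, with the groups apart and a log2 fold change of -0.72 ± 0.22. The count was 1 without AAV-Kl 3 or GFP 4.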
